A study of Homo sapiens with 5 samples.

Results

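Human cells carry many near-identical copies of the ribosomal RNA genes, and the copies that GRCh38 places on the short arm of chromosome 21 held the strongest gene-assigned peaks of this DRIP-seq study of RNA:DNA hybrids, by the peak caller's q in the weakest library. The 6 genes followed are annotated in the peak lists as lncRNAs at these copies, namely FP671120.5, FP671120.7 and FP671120.8, and FP236383.3, FP236383.4 and FP236383.5. Their peaks were pooled with all unassigned peaks between 8200000 and 8470000 of chromosome 21, and this set is called the 45S window below. It held 155 of the 80323 peaks of the study, of which 82 were assigned to a member gene and 73 to no gene. By library, 42 and 38 of these peaks were in controls 1 and 2 and 44 and 31 in exp 1 and 2. The 5S array on chromosome 1, from 228608460 to 228647041, was set beside it and held 1 peak in each library.

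The members were chosen on measured values. They had a peak in all 4 libraries and the highest weakest-library −log10 q, where q is the peak caller's adjusted probability and the best peak of each gene was used. Among 12329 genes with a peak in any library, 1349 had one in all 4, which is 10.9%, and all 6 members were among them by choice. The weakest −log10 q was 228 for FP671120.5, 163 for FP236383.3, 62.5 for FP671120.7, 55.6 for FP236383.4, 47.2 for FP671120.8 and 47.2 for FP236383.5. The gap below the lowest member was narrow, since the next gene, the membrane mucin MUC4, reached 47.1. It was followed by SERINC2, a serine incorporator family gene, at 41.3, ADAP1 at 39.8, TAF11L4 at 34.6 and AC092296.2 at 34.1. These genes are the most like the members by the measure that chose them, the weakest of 4 libraries.

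Ribosomal RNA is made from tandem repeats. RNA polymerase I transcribes the 45S precursor, which holds the 18S, 5.8S and 28S RNAs between transcribed spacers, and an intergenic spacer separates one precursor from the next. The 5S RNA is transcribed by RNA polymerase III from a separate array. These genes are among the most heavily transcribed in the cell, and R-loops, in which nascent RNA hybridizes to its DNA template and displaces the other strand, are known to form over them. Topoisomerase I, RNase H enzymes and helicases limit such hybrids.

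DRIP-seq uses S9.6, an antibody against RNA:DNA hybrids, to pull down sonicated genomic DNA. All libraries came from PC-9, an established cell line of human lung adenocarcinoma. Libraries of 2 groups were compared, control (2 libraries) and exp (2 libraries), and 1 input library made without S9.6 served all 4. The design text names a knockdown of FANCI, a partner of FANCD2 in the Fanconi anaemia pathway of DNA crosslink repair, and the exp libraries are taken here to be that knockdown. The labels name no knockdown agent, control agent or duration. DNA peaks cannot check the identity of the cell line or the depletion of FANCI. Separate cultures are not stated in the labels. The spread behind each p-value is therefore that between these libraries and may be technical.

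The DRIP reads under all peaks numbered 1266127 and 1001453 in controls 1 and 2 and 801196 and 646455 in exp 1 and 2. Both exp libraries had fewer peaks than both controls, and the bases under peaks were 0.665 times as many. A 2 against 2 exact permutation test cannot go below p = 0.333. Total sequencing depth is unknown here, so DRIP reads are given per input read under the same peaks, a ratio that is not corrected for depth. The protocols mention PCR and no molecular identifiers, so reads are not independent molecules. Reads from any of the near-identical copies in the genome, including copies that the assembly lacks, can be placed at the chromosome 21 copies, so a value describes the repeat family and not a single locus.

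The annotation of GRCh38.p14 places 3 full copies in the window, RNA45SN2, RNA45SN3 and RNA45SN1, and a partial copy with the 18S pseudogene RNA18SP5. Small RNA genes also lie within these copies. The hairpins below are shown because they lie between the upstream peak and the 18S peak, where almost no peak was called. Capitals mark the mature arms, sequences are written 5′ to 3′ from RefSeq (GRCh38.p14, plus strand), and MIR6724-4 at chr21:8432530-8432621 has the same hairpin as MIR6724-2 at chr21:8249505-8249596. MIR10396B lies at chr21:8436324-8436374, in the 5′ external spacer of RNA45SN1.
MIR6724-2: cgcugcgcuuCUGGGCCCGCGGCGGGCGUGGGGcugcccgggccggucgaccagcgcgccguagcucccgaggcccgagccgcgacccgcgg
MIR10396B: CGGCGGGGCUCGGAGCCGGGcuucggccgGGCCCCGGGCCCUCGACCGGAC

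The MIR6724-2 hairpin is 83.7% G and C and that of MIR10396B is 86.3%. Neither hairpin, nor any other of the 4 MIR6724 genes in the window, lay under a peak in any library. The nearest peak was 178 to 753 bp from these 5 genes. MIR3648-1, in the 5′ external spacer of RNA45SN2, lay under a peak in control 1 only. Of the 12 rRNA genes annotated in the window, 10 carried a peak in all 4 libraries. The exceptions were 5.8S genes: RNA5-8SN1 lay under no peak in any library, and RNA5-8SN3 lay under one in control 1, control 2 and exp 1 but not in exp 2. The 12 genes are nested, since each precursor gene contains the other rRNA genes of its copy. The same peak can therefore count for several of them, and near-identical copies can share reads. The window was set around genes chosen for a peak in all 4 libraries, so nothing is read from this count.

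Peaks fell on 18S, 28S, the upstream spacer and the intergenic spacer of every full copy in every library. Other parts differed between copies. The internal spacers held a peak summit at RNA45SN2 in every library, at RNA45SN3 in all but exp 2 and at RNA45SN1 in none. The 5′ external spacer held one at RNA45SN1 in all but exp 2, at RNA45SN2 in control 1 only and at RNA45SN3 in none. Summed over the 3 full copies, peaks covered 98.0% and 100% of the 18S gene in controls 1 and 2 and 100% and 97.6% in exp 1 and 2. The 28S gene was covered over 58.2%, 67.4%, 65.9% and 54.2% in the same order. The first 17.0 kb of the intergenic spacer after the precursor was covered over 92.8%, 92.9%, 83.4% and 91.1%, while the 5.0 kb upstream of the precursor was covered over 55.9%, 53.1%, 49.0% and 54.6%. All values for the intergenic and upstream spacers refer to these stretches. Coverage was low in the 5′ external spacer, at 11.4%, 7.34%, 7.46% and 2.20%, and it was 0 in the 3′ external spacer in every library. Over the internal spacers with 5.8S it was 34.5%, 36.8%, 29.3% and 14.1%. In the intergenic spacer and the internal spacers both exp libraries were below both controls, with exp 1 the lowest in the former and exp 2 in the latter. The groups overlapped over 18S, 28S, the upstream spacer and the 5′ external spacer, and exp 2 was the lowest over 28S.

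**Figure D1:**
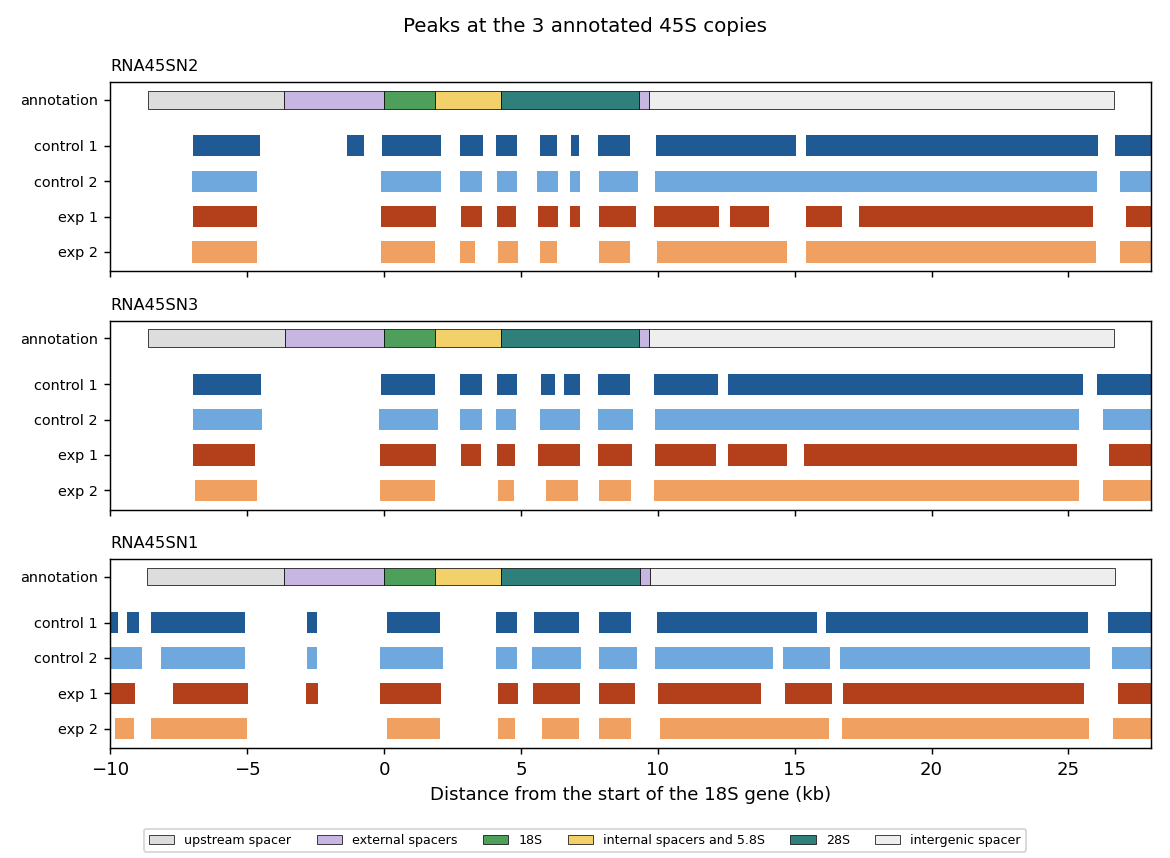
Peaks (bars, 1 row per library) along the 3 full 45S copies, with distance from the start of the 18S gene in kb on the x axis and the annotated parts of each copy above. The same blocks recur in every copy and library: a peak upstream, a gap over most of the 5′ external spacer, a peak over 18S, separate peaks over 28S, and long peaks in the intergenic spacer.

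The position of the summits was shared too. In each full copy the intergenic spacer peak with the best q had its summit between 20348 and 21109 bp after the start of 18S, in 12 of 12 combinations of copy and library. The upstream summits lay at -6549 to -6065 bp from the start of 18S, also in 12 of 12, and the 18S summits 988 to 1511 bp after it when RNA18SP5 was included. Since reads of one copy can be placed at another, these repeats across copies are not independent.

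The highest DRIP reads per input read were over the coding parts. Over 18S the ratio was 4.32 and 4.37 in controls 1 and 2 and 4.01 and 3.24 in exp 1 and 2. Over 28S it was 3.59, 4.07, 3.97 and 2.75. The intergenic spacer gave 2.91, 2.37, 2.56 and 2.17, the upstream spacer 2.49, 2.48, 2.83 and 2.11, and the internal spacers with 5.8S 2.84, 2.63, 2.13 and 1.74. Over 18S and over the internal spacers both exp libraries were below both controls (p = 0.333 for each, exact permutation test), and in the other 3 parts the groups overlapped. The internal spacer value of exp 2 came from 1 peak with 92 input reads, at RNA45SN2. In each other library it came from 2 peaks, at RNA45SN2 and RNA45SN3. Divided by the ratio over all peaks (chosen after seeing the data), the groups overlapped over 18S, at 2.05, 2.25, 2.16 and 2.33, and not over the internal spacers, at 1.35, 1.35, 1.15 and 1.25 (p = 0.333, exact permutation test). The 18S ratio was 1.59 times the intergenic spacer ratio (log2 difference 0.67 ± 0.148, SD, n = 4 libraries), was higher in 4 of 4 libraries, and was higher in 12 of 12 combinations of copy and library, by 1.41 to 1.88 times. No test is given because the strength of these peaks over their background chose the genes.

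That order depends on the measure. The best fold enrichment deposited for each copy and library, which is a peak's value against a local Poisson background, was 7.01 to 11.7 in the intergenic spacer and 4.99 to 6.51 over 18S. On this measure the intergenic spacer was the higher part, with a log2 difference of -0.67 for 18S over the spacer.

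**Figure D2:**
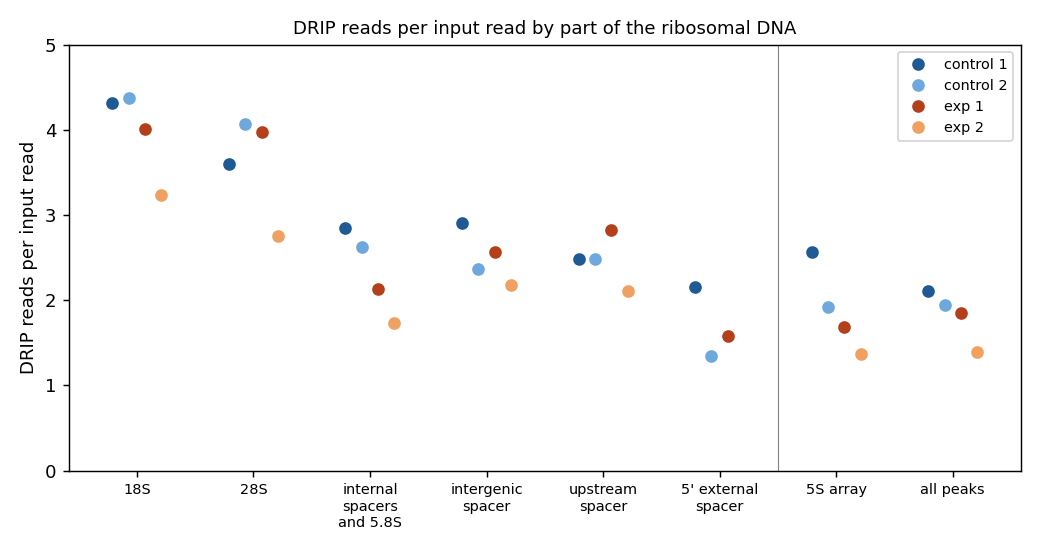
DRIP reads per input read (y axis) for each part of the 3 full 45S copies, the 5S array and all peaks, with 1 point per library. The 18S points lie between 3.24 and 4.37 and the intergenic spacer points between 2.17 and 2.91. Exp 2 has no point in the 5′ external spacer because no peak summit fell there.

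The GC skew that the lists give for each peak changed sign along the copy. It was read as positive where G exceeds C on the reference strand. All 3 full copies and the members FP671120.5 and FP236383.3 run on the plus strand. Peaks with their summit in the first 17.0 kb of the intergenic spacer were negative in 26 of 26 cases, from -0.338 to -0.103. Upstream peaks were negative in 12 of 12, from -0.292 to -0.147. Of the 40 window peaks outside the marked parts of the copies, 37 were negative and 2 positive, from -0.618 to 0.046. Over 18S the skew was close to 0, and 15 of 16 peaks were positive. Over 28S it was positive in 36 of 47 peaks, with a range of -0.056 to 0.202. The median intergenic spacer peak had a skew above that of only 12.5% to 21.01% of all peaks of its library. The formula behind the skew is not given in the sources used here.

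**Figure D3:**
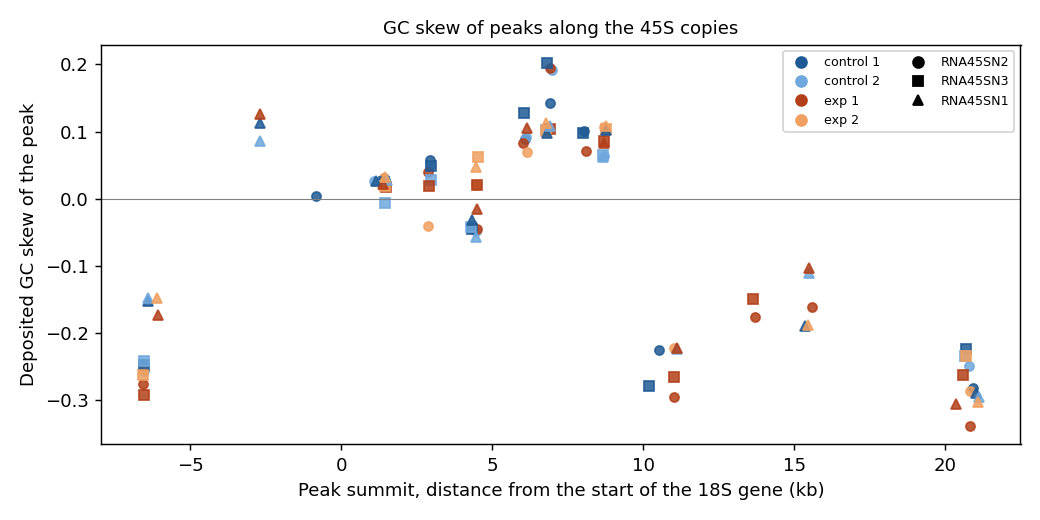
Deposited GC skew (y axis, no unit) of each peak at the 3 full 45S copies against the distance of its summit from the start of the 18S gene (kb). Colours mark libraries and symbols mark copies. All upstream points and all points in the first 17.0 kb of the intergenic spacer are negative, and the points over 18S sit near 0. Peaks outside the marked parts of the copies are not drawn.

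The 6 member genes divide by direction. FP671120.5 and FP236383.3, annotated on the plus strand, take the upstream, 28S and intergenic spacer peaks of RNA45SN2 and RNA45SN3. FP671120.5 had DRIP reads per input read of 2.93 and 2.55 in controls 1 and 2 and 2.79 and 2.26 in exp 1 and 2, and FP236383.3 had 3.01, 2.58, 2.75 and 2.25. In both genes exp 1 lay between the controls and exp 2 below them.

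The other 4 genes run on the minus strand over 18S, against the direction of the 45S precursor, and the lists describe FP671120.7 as similar to YAM1, a myogenesis-associated RNA. FP671120.7 had ratios of 4.17, 4.01, 3.70 and 3.11 in controls 1 and 2 and then exp 1 and 2. FP236383.4 had 3.98, 4.05, 3.56 and 3.22. FP671120.8, at the partial copy, had the highest ratios of the 6 members, at 4.99, 4.88, 4.69 and 4.02. FP236383.5 had 4.10, 4.28, 3.94 and 3.08. In each of these 4 genes both controls exceeded both exp libraries, as in 299 of the 1329 genes (22.5%) with a peak and input reads in all 4 libraries. These ratios are not corrected for depth, and the ratio over all peaks was lower in both exp libraries too. Divided by it (chosen after seeing the data), the mean was higher in exp for all 6 members. The same share over all genes was not computed, so nothing particular to the members is read from it. FP671120.8 then had 2.37 and 2.51 in control libraries against 2.53 and 2.90 in exp libraries. FP671120.5 and FP236383.3 were also higher in both exp libraries than in both controls. The number of peaks summed differed between libraries. For FP671120.8 it was 3 and 2 in controls 1 and 2 and 1, at 18S, in each exp library. Its internal spacer peaks, called only in the controls, had lower undivided ratios there, 4.05 and 3.31 against 5.33 and 5.16 at 18S. The 18S peak was not scaled alone, so no separation of the groups is read from FP671120.8. FP671120.7, FP236383.4 and FP236383.5 overlapped between the groups. The share of all genes without such overlap was not computed. The 18S peaks shared by the 4 minus-strand genes are near-identical in sequence, so these genes are not separate observations. The DRIP reads carry no strand here and do not show which direction of transcription gave the hybrids.

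Window peaks also held many input reads. The median window peak had input reads per kb of 209 and 194 in controls 1 and 2 and 204 and 243 in exp 1 and 2, against medians of 15.0, 14.3, 14.1 and 15.9 over all peaks, and it exceeded 99.5% to 99.7% of the peaks of its library. In DRIP reads per input read the median window peak was not high: it was 2.95, 2.93, 2.89 and 2.32, against 4.38, 3.75, 4.00 and 3.00 over all peaks. Among the next genes by q, only TAF11L4, with 102 to 103 input reads per kb, was within the range of 95.5 to 124 of the member FP671120.8. MUC4, SERINC2, ADAP1 and AC092296.2 lay below this range in every library, at no more than 15.2, 73.5, 40.9 and 46.2. The other members lay above it. The share of all peaks below the median window peak in DRIP reads per input read was 28.2%, 32.0%, 29.7% and 36.3%. The part of copy number and read placement in the −log10 q of the members was not tested.

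Exp and control libraries overlapped in the window as a whole. The summed DRIP reads there were 69384 and 62492 in controls 1 and 2 and 61294 and 51221 in exp 1 and 2, with 24151, 24366, 22398 and 23248 input reads. The ratio was 2.87, 2.56, 2.74 and 2.20, or 2.72 ± 0.218 (SD, n = 2) in control and 2.47 ± 0.377 (SD, n = 2) in exp, with p = 0.667 in the exact two-sided permutation test. The sign of this difference rests on exp 2: without it the log2 difference was 0.0117, against -0.145 with all libraries. Over all peaks the ratio was 2.11, 1.94, 1.85 and 1.39. Divided by that value, the window ratio was 1.36, 1.32, 1.48 and 1.59, higher in both exp libraries (p = 0.333, exact permutation test), so the direction turns with the scaling. Divided by the ratio over the other regions with a peak in all 4 libraries, it was 2.09, 2.39, 2.44 and 2.14, and the groups overlapped (p = 0.667, exact permutation test, chosen after seeing the data).

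The bases under peaks in the window were lower in both exp libraries, at 89.3 kb in control 1, 91.8 kb in control 2, 83.7 kb in exp 1 and 82.8 kb in exp 2. The means were 90.5 ± 1.71 kb (SD, n = 2) and 83.3 ± 0.620 kb (SD, n = 2), a ratio of 0.920 with p = 0.333 in the exact permutation test, the smallest the design allows. The whole set of peaks shrank more, to 0.665 of the control length, so the window's share of the bases under peaks was 0.435% and 0.524% in control libraries against 0.654% and 0.664% in exp libraries. Its share of the DRIP reads under peaks was 5.48% and 6.24% in control libraries against 7.65% and 7.92% in exp libraries, while its share of the input reads was 4.02% and 4.73% against 5.18% and 4.99%. A larger share of a smaller total is not a gain of reads, and the DRIP reads per kb overlapped between the groups.

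At the 5S array both exp libraries were below both controls. The DRIP reads numbered 4856 and 3612 in controls 1 and 2 and 3169 and 2558 in exp 1 and 2, and the input reads 1891, 1884, 1873 and 1866. The ratio was 2.57, 1.92, 1.69 and 1.37, with an exp to control ratio of 0.683 (p = 0.333, exact permutation test). Both the input reads and the interval hardly varied, so the ratio followed the DRIP reads. Scaled by all peaks, the groups overlapped at 1.22, 0.987, 0.914 and 0.987 (p = 0.667, exact permutation test). Scaled by the other regions with a peak in all 4 libraries, they did not, at 1.87, 1.79, 1.51 and 1.33 (p = 0.333, exact permutation test, chosen after seeing the data).

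Set against the 5S array within each library, the 45S window was higher in exp. The quotient of the ratios was 1.12 and 1.34 in controls 1 and 2 and 1.62 and 1.61 in exp 1 and 2, with p = 0.333 in the exact permutation test. Library depth cancels in this quotient. The 45S ratios overlapped between the groups and the 5S ratios did not.

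**Figure D4:**
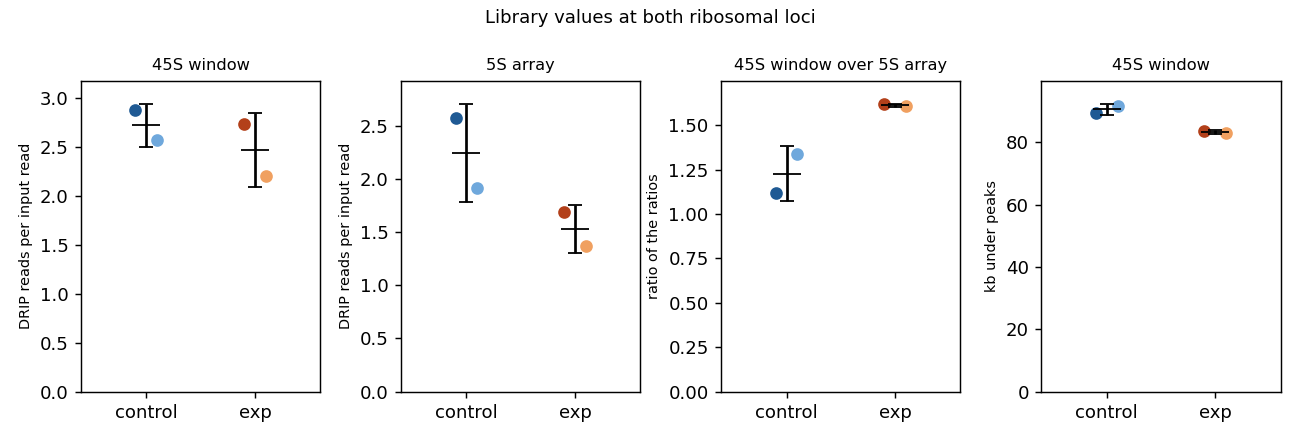
Values per library (points), with the group mean and SD (black), for DRIP reads per input read in the 45S window and at the 5S array, for the quotient of both, and for the kb under peaks in the 45S window. The groups overlap in the first panel and do not overlap in the other 3, where p is 0.333, the smallest 2 against 2 libraries allow.

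The 5S peak spanned the whole array. The 17 annotated 5S genes stand 2215 to 2242 bp apart, with a median of 2241 bp, and the peak ran over all of them in control 1, control 2 and exp 1. In exp 2 it ended 64 bp short of RNA5S17. The lists class this peak as intergenic and assign it to no gene. By RefSeq positions the peak also ran into the protein-coding gene RHOU. It covered 2395 and 2244 bp of this gene in controls 1 and 2 and 1613 and 1328 bp in exp 1 and 2. The 300 bp taken as the RHOU promoter lay under the peak in every library, as did part of the pseudogene DUSP5P1. Outside both loci few annotated ribosomal genes or pseudogenes lay under a peak. Of 510 other members of the 5S family, 2 had a peak in control 1, 5 in control 2 and none in exp 1 or exp 2. Of 4 other 18S genes, 1 had a peak in each library.

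Regions with a peak in all 4 libraries allowed a test per region. Peaks sharing at least 1 bp were merged, and 29 of 41 window regions (70.7%) were found in all 4 libraries, against 1859 of 58639 (3.17%) in the study. The rule chose genes present in all 4, so nothing is read from that difference. DRIP reads of exp and control libraries were compared with edgeR's quasi-likelihood test, with peak width as an offset and each library counted over its own peaks. Of 1824 regions tested, 0 (0%) passed an adjusted p of 0.05, and 122 had an unadjusted p below 0.05. DESeq2 also called 0, with 33 at the unadjusted level. Left without exp 1, edgeR called 8 regions, and without exp 2 it called 10, none of them in the window or at the 5S array.

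Only window regions with a peak in all 4 libraries were tested, so the loss of a peak in a library is not covered. None of the 29 window regions passed in edgeR, and none had an unadjusted p below 0.05 in edgeR or DESeq2. Their log2 fold changes, exp over control, ran from -0.20 at the internal spacer of RNA45SN2 to 0.36. The highest was at a region beyond the first 17.0 kb of intergenic spacer after RNA45SN1. The median was -0.0018 against 0.0049 over all regions, with 14 higher and 15 lower, and the lowest adjusted p was 0.835. This balance rests on single libraries and on the width offset. Of the 29 regions, 27 were higher without control 2 (median 0.22), 24 without exp 2 (median 0.13), 8 without exp 1 (median -0.078), 5 without control 1 (median -0.15) and 22 with no width offset (median 0.073). The standard errors were 0.159 to 0.213. The 18S region of RNA45SN2 had a log2 fold change of -0.03 ± 0.169 (SE), that of RNA45SN3 -0.09 ± 0.169, that of RNA45SN1 -0.11 ± 0.166 and that of the partial copy RNA18SP5 0.08 ± 0.169. The 5S array had -0.37 ± 0.161 (SE), an unadjusted p of 0.0355 and an edgeR adjusted p of 0.689, so it did not pass. With no width offset it had -0.22 (unadjusted p = 0.253), and the unadjusted p was 0.145 without exp 1 and 0.358 without exp 2 in edgeR. With the offset it was lower than the lowest of the window regions.

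**Figure D5:**
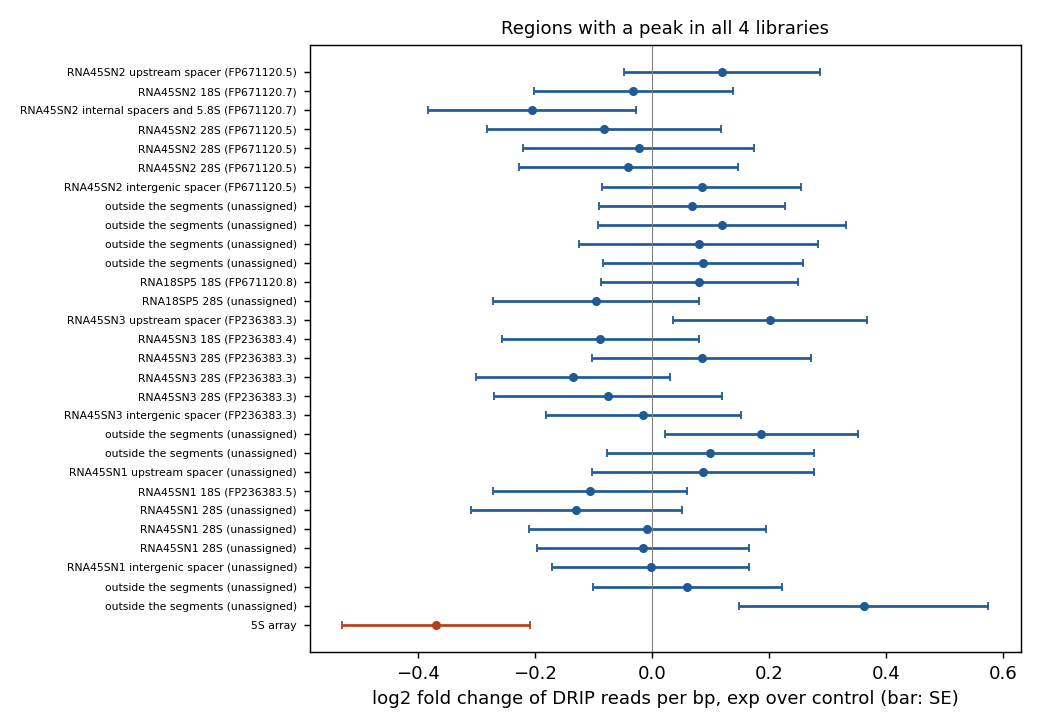
log2 fold change of DRIP reads per bp, exp over control (x axis, bar: SE), for the 29 window regions (blue) and the 5S array (red), ordered by position and labelled with the part of the copy and the assigned gene. The window regions lie on both sides of 0, from -0.20 to 0.36, and the 5S array lies at -0.37.

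The genes that make, process or protect ribosomal RNA were looked up in 5 lists of 95 genes. Those with a peak numbered 23 and 34 in controls 1 and 2 and 18 and 14 in exp 1 and 2, shares of 24.2%, 35.8%, 18.9% and 14.7%, against 24.7%, 25.3%, 18.1% and 14.5% of 20056 protein-coding genes. Control 2 stood above the others among the lists. A peak in all 4 libraries was found in 5 genes, where 5.18% of protein-coding genes had one. Without exp 1 it was 9 genes, and 2 and 0 where −log10 q had to reach 2 or 5. The 5 were TTF1, the terminator factor of RNA polymerase I, BAZ2A, a subunit of the nucleolar remodelling complex that silences ribosomal DNA, the histone demethylase KDM2A, the deacetylase HDAC1, and NCL, which encodes nucleolin. In BAZ2A the DRIP reads under its peaks were 22, 52, 22 and 75, and in HDAC1 76, 77, 36 and 32.

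Peaks in both controls and neither exp library were found in 5 list genes, with a background of 3.72%. TCOF1, a nucleolar cofactor of RNA polymerase I transcription, had 107 and 55 DRIP reads under its peaks in control 1 and control 2. BOP1, which acts in 28S maturation, had 27 and 30, and UTP4, which acts in 18S processing, had 37 and 17. The RNA acetyltransferase NAT10 had 23 and 27, and GTF3C1, a subunit of the TFIIIC factor of RNA polymerase III, had 41 and 27. No list gene had peaks in both exp libraries and neither control (background 0.548%). These peaks held few reads, and exp libraries had fewer peaks in all, so nothing particular to the lists is read from the counts.

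By list, the 16 genes of RNA polymerase I transcription had peaks in 3, 3, 3 and 1 genes in controls 1 and 2 and then exp 1 and 2. The 10 genes of ribosomal DNA chromatin had 7, 5, 5 and 5, and the 27 of ribosomal RNA processing 7, 8, 3 and 3. For RNA polymerase III and 5S, with 24 genes, the counts were 4, 9, 2 and 2. The 18 R-loop factors had 2, 9, 5 and 3. TOP1, the topoisomerase that relaxes supercoils behind the polymerase, and DHX9, a helicase that unwinds RNA:DNA hybrids, had no peak in any library, as was the case for 47 of the 95 list genes and 11623 of the 20056 protein-coding genes. FANCI itself had 26, 135 and 24 DRIP reads under its peaks in control 1, control 2 and exp 1, and no peak in exp 2.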

How the data were processed

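Each DRIP library had its own peak list, with peaks not pooled; per the submitters' processing notes, MACS2, Bowtie2, DiffBind, cutadapt and FastQC were used on build GRCh38, with settings not given in the sources used here. Per the file headers, the deposited read counts are whole-number reads of the DRIP and input library over each peak, without normalization. The fold enrichment deposited by the authors is a ratio over a local Poisson background. The columns of p-value and q-value that the authors deposited are headed as a multiple of −log10, but the lowest p entry was 3.00, so plain −log10 was read. The score for GC skew, deposited without its formula, was read on the reference strand: over 25 regions with peaks assigned to both directions r was 0.850.

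Counts were summed over peaks. Groups and replicate numbers came from the titles. Values of 1 per library were tested with an exact permutation test (two-sided), and regions with edgeR 4.0.16 (DESeq2 1.42.0 as an alternative, R 4.3.3), with peak width as offset, TMM factors from width-scaled counts, edgeR's filter on low counts and Benjamini-Hochberg adjustment over all regions. Copies, spacers and gene positions came from the RefSeq table of GRCh38.p14. The edgeR step was tested on simulated data. It called 63 of 100 regions with a simulated 2-fold change, 98 of 100 with a 4-fold change and 6 of 1624 unchanged regions. A 2-fold change can therefore be missed. Same-numbered libraries did not deviate together (r = -0.0774 over 1859 regions). The members and lists were chosen with earlier results of these data known. Named genes were the members, the rRNA genes of both loci, the 5 genes next in weakest −log10 q, and list genes with a peak in all 4 libraries or in both libraries of 1 group only. The miRNA genes, RHOU, DUSP5P1, TOP1, DHX9 and FANCI were added after their values were seen.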

Additional observations from a re-analysis of the deposited data

How the results depend on the processing

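The 6 members kept a peak in all 4 libraries with −log10 q of at least 2 or 5 and where only peaks with DRIP above input reads were used. The log2 difference of the 45S window ratio, exp minus control, was -0.145; it turned to 0.191 when divided by the ratio over all peaks and to 0.0348 when divided by that over other regions in all 4 libraries (chosen after seeing the data), and ranged from -0.301 to 0.0117 when 1 library was left out, reversing without exp 2. Divided by the ratio over all peaks (chosen after seeing the data), it also turned for FP671120.5 (0.211), FP671120.7 (0.0668), FP671120.8 (0.152), FP236383.3 (0.172), FP236383.4 (0.0910), FP236383.5 (0.0699) and the 18S part (0.0650). For the 5S array it was -0.543 (-0.754 to -0.332 with 1 library left out), and for 45S over 5S 0.398 (0.269 to 0.527). The covered length, -0.121, became 0.464 as a share of all bases under peaks and ranged from -0.140 to -0.101 with 1 library left out. The 18S over intergenic spacer difference, 0.669, became -0.670 by best fold enrichment (chosen after seeing the data) and ranged from 0.597 to 0.701 with 1 library left out. The edgeR call count of 0 became 1 with input reads as offset and ranged from 0 to 10 with 1 library left out, at 8 without exp 1 and 10 without exp 2 (the lone library is then assumed to vary like the other group); window regions stayed at 0 calls in all 12 alternatives. The intergenic spacer region of RNA45SN3 (-0.0143) was 0.112 with no width offset, 0.0147 without control 2, and ranged from -0.0715 to 0.0402 with 1 library left out. The 18S region of RNA45SN2 (-0.0313) was 0.00118 with no width offset, 0.0278 without exp 2, and ranged from -0.195 to 0.146 with 1 library left out. List genes with a peak in all 4 libraries numbered 5, then 2 with −log10 q of at least 2, 0 with at least 5, and 5 to 9 with 1 library left out (9 without exp 1). The replicate numbers do not pair the libraries; a replicate block cannot change a difference of means over 2 balanced pairs (-0.145 for the 45S window), and in edgeR with the block no window region was called. Library totals were not used, so depth limits every ratio between libraries.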
